A study of Mus musculus with 6 samples.

Results

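Bile acid synthesis and conjugation in the liver was examined through 10 enzyme genes: Cyp7a1, Cyp8b1, Cyp7b1, Cyp27a1, Cyp39a1, Hsd3b7, Amacr, Acox2, Slc27a5 and Baat. They were taken by name, as every probe set whose only gene symbol in the array annotation is one of them, which gave 15 of 45037 probe sets and 10 of 18193 genes. A probe set is a group of short probes on the array that are summed to 1 value. All animals were male FRG mice on a C57Bl/6J background, 12 weeks old, with Fah, Rag2 and Il2rg deleted in both groups, so there was no animal with intact tyrosine breakdown in the comparison. Loss of Rag2 and Il2rg leaves a host without mature lymphocytes. The FRG+NTBC group (3 mice) drank 16 mg/L NTBC (nitisinone), the inhibitor of Hpd that keeps Fah-deficient mice alive, and the FRG-7dNTBC group (3 mice) had drunk water without it for 7 days. All mice ate a chow low in tyrosine and phenylalanine. RNA came from whole liver, with 1 array per mouse.

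Bile acids are made from cholesterol in hepatocytes. In the classic route, Cyp7a1 hydroxylates cholesterol first and sets the rate, and Cyp8b1 later adds the hydroxyl group that makes cholic acid. In the alternative route, the mitochondrial enzyme Cyp27a1 oxidizes the side chain first and Cyp7b1 then hydroxylates the oxysterol ring, while Cyp39a1 does the same ring step on an oxysterol that comes largely from the brain. Hsd3b7 converts the sterol ring in all routes, Amacr and Acox2 act on the side chain in peroxisomes, Slc27a5 (the bile acid-CoA ligase) activates bile acids and Baat joins them to taurine or glycine. Bile acids repress their own synthesis through the receptor FXR (Nr1h4) and, from the gut, through the hormone Fgf15.

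Values are array intensities on a linear scale, and their log2 was tested. The log2 ratio used throughout is the mean log2 intensity in FRG-7dNTBC minus that in FRG+NTBC livers, so a negative value is a fall after withdrawal, and a fold is the ratio of geometric means, not of the arithmetic means printed with their SD. The arrays resembled each other more within a group (r of log2 values across probe sets 0.98 to 0.993) than between groups (0.93 to 0.955). Of all probe sets, 14% were higher and 13.9% lower in FRG-7dNTBC livers at an adjusted p under 0.05 from limma, a linear model with the spread moderated across probe sets. Of the genes, each read at its brightest probe set (highest mean log2 value), 17.4% were higher and 12.7% lower. When each array was scaled to one 75th percentile, the median log2 ratio of all probe sets shifted by -0.13, and 5366 probe sets were higher and 9669 lower, against 6284 and 6262. The deleted gene Rag2 read 20.1 in both groups and served as the mark of a level too dim to judge. Albumin (Alb), the defining product of hepatocytes, read 25775 in FRG+NTBC and 27306 in FRG-7dNTBC livers. The highest value on any array was 29532, so a change in Alb may be hidden near the top of the scale. In whole liver, fewer hepatocytes and less RNA per hepatocyte cannot be told apart.

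After 7 days without NTBC, enzymes of bile acid synthesis that passed the test were lower, except Cyp39a1. At the brightest probe set of each gene, 5 of the 10 members fell (Cyp7a1, Cyp8b1, Cyp7b1, Hsd3b7 and Baat), 1 rose (Cyp39a1) and 4 did not pass (Cyp27a1, Amacr, Acox2 and Slc27a5). Of all genes, 12.7% were lower and 17.4% higher. The median log2 ratio of the 10 genes was -1.11, beside -0.05 over all genes. Over the 15 probe sets, 7 were lower, 1 was higher and 7 did not pass. Groups were fully separate at 11 of the 15, beside 44.1% of all probe sets. Without moderation of the variances 2 of the genes were lower (Cyp7a1 and Baat) and 0 higher. Over all probe sets 3336 were then lower and 3141 higher, against 6262 and 6284. The count of lower genes was 3 when FRG+NTBC replicate 2 or FRG-7dNTBC replicate 1 was left out, and that of higher genes was 0 when FRG+NTBC replicate 1 was left out and 2 when FRG-7dNTBC replicate 3 was.

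**Figure D1:**
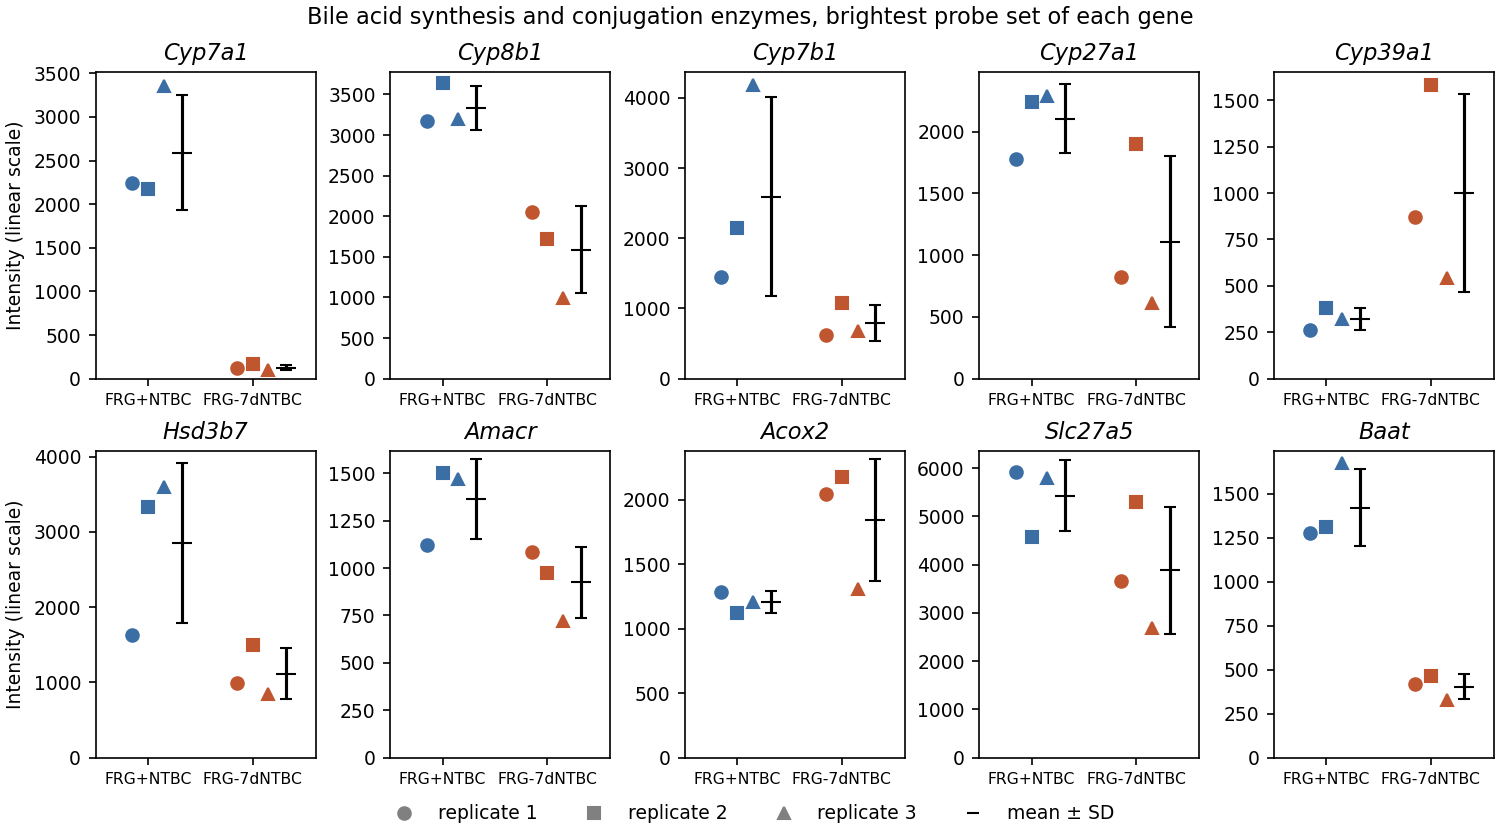
Intensity (linear scale, vertical axis from 0) of the 10 enzyme genes at their brightest probe set in each FRG+NTBC mouse (blue) and FRG-7dNTBC mouse (orange), with the symbol giving the replicate and the black bar the group mean ± SD (n = 3 mice). The groups do not overlap for 8 genes, beside 44.1% of all probe sets, and overlap for Cyp27a1 and Slc27a5. The widest gap is that of Cyp7a1.

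Cyp7a1, the rate-limiting enzyme of the classic route, had the largest change of the 10 genes. Its intensity was 2241, 2179.8 and 3350.1 in the FRG+NTBC mice and 118, 165 and 100.4 in the FRG-7dNTBC mice. Every FRG-7dNTBC mouse lay far below every FRG+NTBC mouse. Its mean dropped from 2590.4 ± 659 to 128 ± 33.7 (mean ± SD, n = 3 in each group), 20.3-fold by geometric means, a log2 ratio of -4.34 (SE 0.23, 95% interval -4.88 to -3.81, adjusted p = 3.12e-05 from limma). Only 34 of the 45037 probe sets had a lower log2 ratio. The 95% interval of Cyp7a1 overlapped that of no other member. This call held under all 15 alternatives tried, with log2 ratios of -4.55 to -3.42. The second probe set of Cyp7a1 was much dimmer, at 121, 65.8 and 128 in the FRG+NTBC mice and 12.1, 41.6 and 11.3 in the FRG-7dNTBC mice. It fell as well, by 2.49 on the log2 scale (SE 0.50, adjusted p = 0.00727 from limma), but it ended near the level of Rag2, so the size of this fall is not exact, and the call was lost without moderation (adjusted p = 0.0915 from limma's linear model). Without FRG-7dNTBC replicate 2, the mouse at 41.6, its log2 ratio was -3.10.

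Cyp8b1, which directs synthesis towards cholic acid, fell less. It read 3169, 3641 and 3191 in the FRG+NTBC mice and 2048, 1722 and 996 in the FRG-7dNTBC mice. The groups did not overlap, and the spread was wider after withdrawal. The mean went from 3334 ± 266 to 1589 ± 539 (mean ± SD, n = 3 in each group), a log2 ratio of -1.13 (SE 0.25, adjusted p = 0.012 from limma). This call was lost without moderation (adjusted p = 0.097 from limma's linear model) and without FRG+NTBC replicate 2 (adjusted p = 0.0538).

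Hsd3b7, the ring dehydrogenase shared by the routes, read 1629, 3327 and 3591 in the FRG+NTBC mice and 996, 1499 and 849 in the FRG-7dNTBC mice. FRG+NTBC replicate 1 stood well below the other two and close to FRG-7dNTBC replicate 2, although the groups did not overlap. The log2 ratio was -1.31 (SE 0.33, adjusted p = 0.0197 from limma). Hsd3b7 no longer passed without moderation (adjusted p = 0.129), without FRG+NTBC replicate 2 (0.0812) or replicate 3 (0.0707), or with FRG-7dNTBC replicate 1 left out (0.0706), all from limma.

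Promoter sequence in the RefSeq table (mouse build GRCm38.p6) was matched for 4 of the 10 members: Cyp8b1, Hsd3b7, Cyp27a1 and Acox2. The 250 bases before the transcription start are shown for Cyp8b1 and Hsd3b7, the matched members that fell, written 5′ to 3′ on the strand of the gene. Cyp8b1 lies on the minus strand (chr9:121916306-121916555) and Hsd3b7 on the plus strand (chr7:127800359-127800608). Capitals mark a match on either strand to TGANNNNGC, the core letters of the antioxidant response element.
Cyp8b1: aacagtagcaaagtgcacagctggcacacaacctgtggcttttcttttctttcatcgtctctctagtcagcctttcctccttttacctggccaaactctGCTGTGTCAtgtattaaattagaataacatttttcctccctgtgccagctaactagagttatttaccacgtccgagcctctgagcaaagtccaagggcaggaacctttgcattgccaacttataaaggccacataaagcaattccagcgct
Hsd3b7: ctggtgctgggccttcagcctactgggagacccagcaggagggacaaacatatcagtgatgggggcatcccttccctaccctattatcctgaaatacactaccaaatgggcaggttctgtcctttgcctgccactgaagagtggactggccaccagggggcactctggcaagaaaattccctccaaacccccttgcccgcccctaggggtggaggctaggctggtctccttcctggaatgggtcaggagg
Cyp8b1 held 1 match, which starts 151 bases before the transcription start on the opposite strand, and Hsd3b7 held 0. Cyp27a1 and Acox2 held 1 match each in the same window (Acox2 has 2 overlapping entries that share it). These letters occur in 35.2% of the 32851 promoters of this length. AAGGTCA, the letters bound by NR5A2 and related receptors, occurs in 4.08% of promoters and TTANGTAA, the D-box, in 2.06%, and neither was found on either strand in the windows of the 4 members. Since only TGANNNNGC had matches, no match overlapped one of another motif.

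The alternative route began with a less certain change. Cyp27a1, its first enzyme, read 1783, 2241 and 2288 in the FRG+NTBC mice and 820.3, 1898 and 609 in the FRG-7dNTBC mice. FRG-7dNTBC replicate 2 lay within the FRG+NTBC range while the other two lay far below it. The log2 ratio was -1.09 (SE 0.37, 95% interval -1.95 to -0.23) and did not pass (adjusted p = 0.0628 from limma). Without FRG-7dNTBC replicate 2 it was -1.56 and passed (adjusted p = 0.000942 from limma). It also passed after scaling to one 75th percentile (adjusted p = 0.027), after quantile normalization (0.0335), without dim probe sets (0.0443), with array weights (0.00632), with the replicate number as a block (0.0452) and as the mean of its probe sets (0.0305), all from limma. The second Cyp27a1 probe set read 6.60 and 4.93 on average, below Rag2 in both groups, and cannot show whether the gene changed. The pass of the mean of the probe sets (log2 ratio -0.75) rests in part on this dim one.

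Cyp7b1, the oxysterol hydroxylase of the alternative route, is expressed more in male than in female mouse liver. It read 1448, 2149.8 and 4182 in the FRG+NTBC mice and 617, 1082 and 680.3 in the FRG-7dNTBC mice. The FRG+NTBC mice were spread widely, with a coefficient of variation of 54.8%, and the groups did not overlap. The log2 ratio was -1.61 (SE 0.38, adjusted p = 0.015 from limma). The probe sets of Cyp7b1 disagreed. A second one, at 765, 1121 and 2521 against 719, 1468 and 495, overlapped between the groups and did not pass (log2 ratio -0.68, SE 0.50, adjusted p = 0.348 from limma). The third read 6.43 and 6.16, far below Rag2. The brightest probe set did not pass without moderation (adjusted p = 0.118) or without FRG-7dNTBC replicate 1 (0.0615), and the mean of all 3 probe sets had a log2 ratio of -0.78 (adjusted p = 0.0878), all from limma.

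Cyp39a1, the oxysterol hydroxylase of the brain-derived substrate, was the only member that rose. It read 259.6, 380.04 and 322 in the FRG+NTBC mice and 873, 1585 and 541 in the FRG-7dNTBC mice. Each FRG-7dNTBC mouse was above each FRG+NTBC mouse, and replicate 2 was the highest in both groups. The mean went from 320.5 ± 60.2 to 999.7 ± 533 (mean ± SD, n = 3 in each group), 2.87-fold by geometric means, a log2 ratio of 1.52 (SE 0.35, adjusted p = 0.0146 from limma). This call was lost without moderation (adjusted p = 0.115) and without FRG+NTBC replicate 1 (0.0582), both from limma.

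The routes were compared within each mouse, as the difference between the log2 changes of both enzymes of a pair. The difference was -2.73 on the log2 scale for Cyp7a1 minus Cyp7b1, -3.25 for Cyp7a1 minus Cyp27a1 and -3.21 for Cyp7a1 minus Cyp8b1, with Cyp7a1 the further down in each. For each of these pairs, all 3 FRG-7dNTBC mice lay below all 3 FRG+NTBC mice. Cyp39a1 and Cyp7b1 moved apart by 3.13, again with no overlap. For Cyp8b1 and Cyp7b1 the difference was 0.48, within the spread between mice (SD 0.79 in FRG+NTBC and 0.65 in FRG-7dNTBC). It turned to -0.35 when all probe sets of a gene were averaged, also the Cyp7b1 probe set below Rag2. An exact two-sided permutation test gave p = 0.1 for the 4 larger differences, the smallest p that 3 mice against 3 allow, and p = 0.6 for the last (0.125 and 0.6 adjusted by Benjamini-Hochberg over the 5 pairs). So no pair could pass at 0.05.

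**Figure D2:**
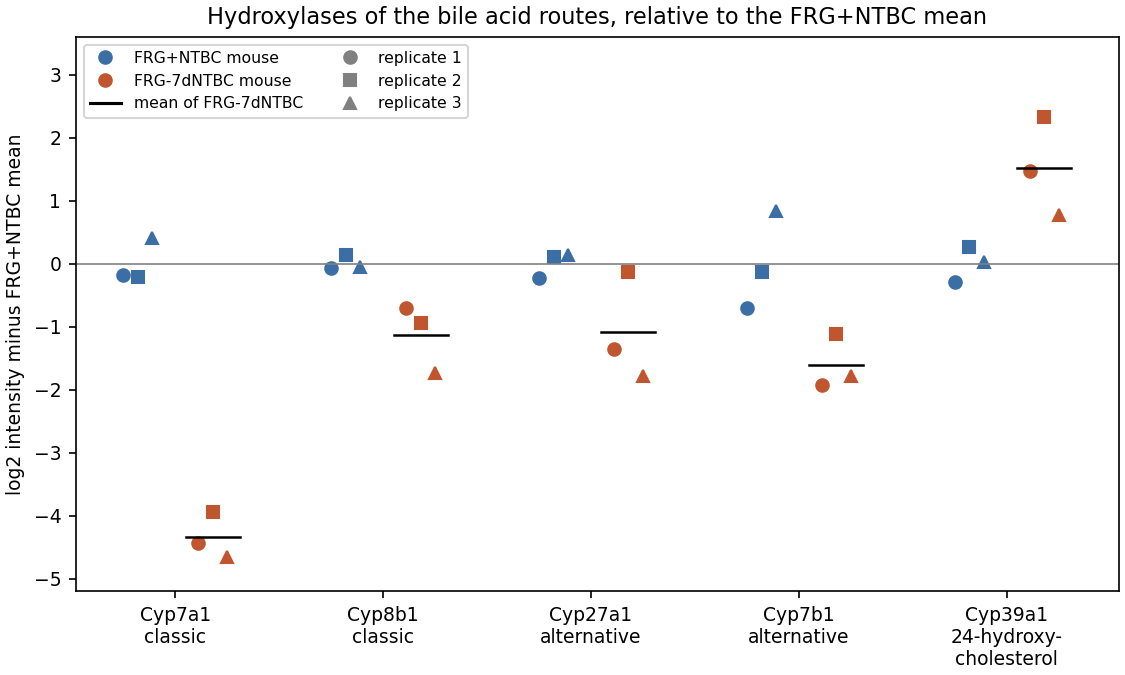
Log2 intensity of each mouse minus the FRG+NTBC mean (vertical axis) for the hydroxylases of the classic route (Cyp7a1, Cyp8b1), the alternative route (Cyp27a1, Cyp7b1) and Cyp39a1, with the symbol giving the replicate and the black line the FRG-7dNTBC mean. Cyp7a1 sits at -4.34, Cyp8b1, Cyp27a1 and Cyp7b1 between -1.61 and -1.09, and Cyp39a1 at 1.52.

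Of the peroxisomal side chain enzymes, Amacr was lower and Acox2 higher by values that did not pass. Amacr, the racemase that sets the configuration of the side chain, read 1121, 1499 and 1468 with NTBC and 1082, 975.5 and 719 without. The groups were separate, but by a narrow margin, and the log2 ratio was -0.57 (SE 0.19, 95% interval -1.01 to -0.13, adjusted p = 0.0606 from limma). Amacr passed after scaling to one 75th percentile (adjusted p = 0.0179), after quantile normalization (0.0127), with array weights (0.0442), in the fit over gene means (0.0496) and without FRG+NTBC replicate 1 (0.047), all from limma. Acox2, the oxidase of the side chain, read 1287, 1121 and 1209 with NTBC and 2048, 2179.8 and 1305 without. FRG-7dNTBC replicate 3 lay just above the FRG+NTBC mice and the other two clearly above them. The log2 ratio was 0.58 (SE 0.20, 95% interval 0.11 to 1.05, adjusted p = 0.0666 from limma). It passed with array weights (adjusted p = 0.0103) and without FRG-7dNTBC replicate 3, where it was 0.81 (adjusted p = 0.00402), both from limma.

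The conjugating enzymes differed in how clearly they moved. Baat, which makes the taurine and glycine conjugates, read 1278, 1314 and 1675 in the FRG+NTBC mice and 422, 465 and 326 in the FRG-7dNTBC mice. The groups were far apart and the spread within each was small, with coefficients of variation of 15.4% and 17.5%. Its mean dropped from 1423 ± 219 to 404 ± 70.8 (mean ± SD, n = 3 in each group), 3.53-fold by geometric means, a log2 ratio of -1.82 (SE 0.18, adjusted p = 0.000313 from limma). The second Baat probe set gave the same direction, from 377, 362 and 343 to 162, 161 and 120.3, a log2 ratio of -1.30 (SE 0.15, adjusted p = 0.000643 from limma). Both Baat probe sets passed under all 14 alternatives that could be computed for them. Slc27a5, which activates bile acids for Baat, read 5914, 4576 and 5793 with NTBC and 3666, 5293 and 2684 without. The groups overlapped through FRG-7dNTBC replicate 2. The log2 ratio was -0.53 (SE 0.24, 95% interval -1.09 to 0.03) and did not pass (adjusted p = 0.146 from limma), while without that mouse it was -0.78 and passed (adjusted p = 0.0213 from limma).

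**Figure D3:**
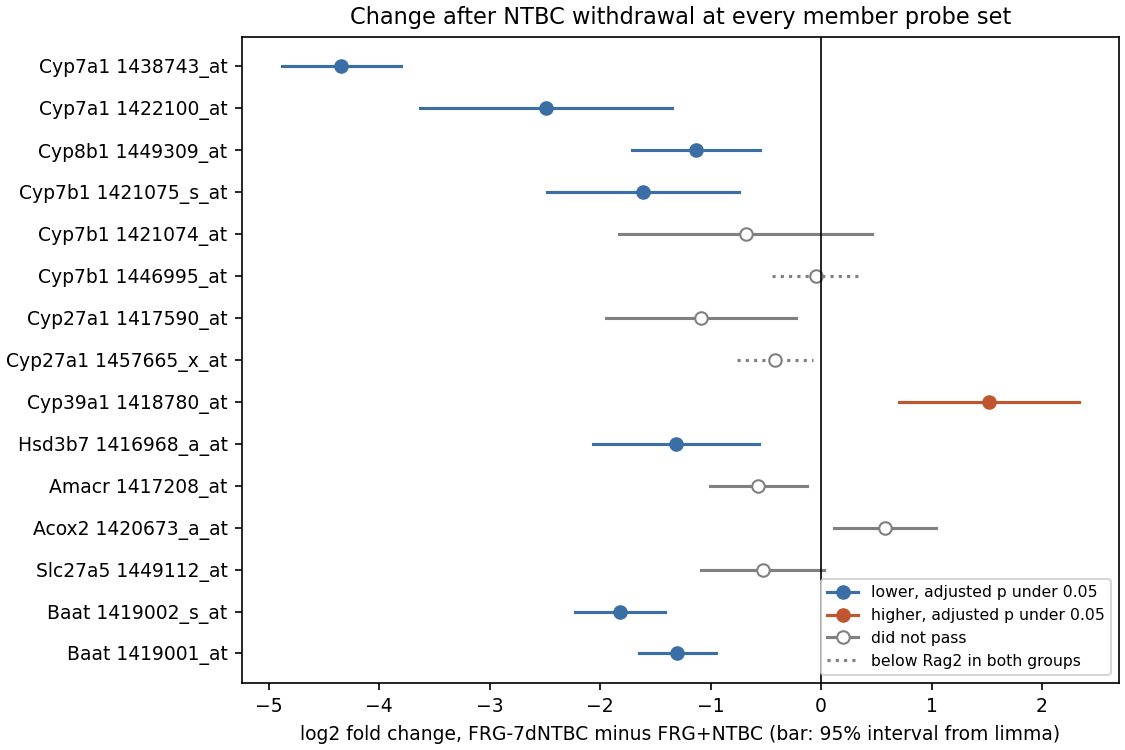
Horizontal axis, log2 ratio of the withdrawal group to the treated group (drawn as log2 fold change) for the 15 probe sets, with 95% intervals from limma. Filled points passed at an adjusted p under 0.05 (7 lower in blue, 1 higher in orange), open points did not, and dotted bars mark the 2 probe sets below the level of Rag2 in both groups.

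In order of log2 ratio, the members ran from Cyp7a1 through Baat, Cyp7b1, Hsd3b7, Cyp8b1, Cyp27a1, Amacr, Slc27a5 and Acox2 to Cyp39a1. Between neighbours in this order the 95% intervals were separate only between Cyp7a1 and Baat and between Slc27a5 and Acox2. Individual mice differed across several members at once. Within FRG-7dNTBC, replicate 2 had the highest value in 8 of the 10 genes and replicate 3 the lowest in 9. Over all 18193 genes the same mice held these places in 34.7% and 35.1% of genes. Replicate 2 was the highest both for genes that fell, such as Cyp7a1 and Baat, and for Cyp39a1, which rose. Within FRG+NTBC, replicate 1 was the lowest in 7 genes and replicate 3 the highest in 5. The share over all genes was not computed for the FRG+NTBC mice, so this order cannot be set against it.

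Other steps of the pathway, made up a list of 10 genes. Of these, 5 fell, 1 rose and 4 did not pass, beside 12.7% of all genes lower and 17.4% higher. The median log2 ratio of the list was -0.50. Those that fell, with their log2 ratios, were Akr1d1, the reductase of the sterol ring (-0.83), the peroxisomal importer Abcd3 (-1.11), the sterol carrier Scp2 (-0.66), Cyp2c70, which makes the muricholic acids of mice (-1.32), and Cyp46a1 (-1.37). Cyp46a1 makes the oxysterol used by Cyp39a1 and went from 93.1 to 35.9. Akr1d1 did not pass in 6 alternatives. Only 1 of the 2 probe sets of Akr1d1 and 2 of the 4 of Scp2 were lower. The peroxisomal thioesterase Acot8 rose by 0.78. Hsd17b4, which follows Acox2 in the side chain, stood at -0.02 (adjusted p = 0.945 from limma). Of this list 1 gene was lower without moderation and 3 without FRG+NTBC replicate 2.

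Sensors and regulators of bile acid synthesis had 8 of 13 genes lower and 0 higher, beside 12.7% and 17.4% of all genes. Their median log2 ratio was -0.65. Those that fell included the bile acid receptor FXR (Nr1h4, log2 ratio -0.79), its partner Rxra (-2.02), the corepressor Nr0b2 (SHP), an FXR target that represses Cyp7a1 (-1.13), Fgfr4, the liver receptor of Fgf15 (-1.91), and Nr1h3, the oxysterol receptor LXR alpha (-1.01). Nr5a2, an activator of Cyp7a1 and Cyp8b1, stood at -0.44 (adjusted p = 0.164 from limma), and Klb, the coreceptor of Fgfr4, at -0.22 (adjusted p = 0.46). Without moderation 3 regulators were lower, as when FRG+NTBC replicate 2 was left out, and 5 when FRG+NTBC replicate 1 or replicate 3 was. The call of Nr0b2 was lost in 4 alternatives and that of Nr1h4 in 2. Rxra was lower at only 1 of its 3 probe sets and Fgfr4 at 3 of 5.

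Carriers of bile acids and of other bile components moved both ways, with 5 of 12 lower and 4 higher, beside 12.7% and 17.4% of all genes. The uptake carrier Slc10a1 fell from a mean of 5319 to 1376 and Slco1b2 from 4068 to 524. Only 1 of the 2 probe sets of Slc10a1 and 3 of the 5 of Slco1b2 were lower. The uptake carriers Slco1a1 (log2 ratio -5.82) and Slco1a4 (-1.94) and the export pump Abcb11, another FXR target (-1.69), fell as well. The export pumps Abcc4, Abcc2 and Abcc3 rose by 3.39, 1.86 and 0.45, and Abcb4, which moves phospholipid into bile, by 0.88. Under either scaling 3 carriers were higher, and without moderation 2 were.

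**Figure D4:**
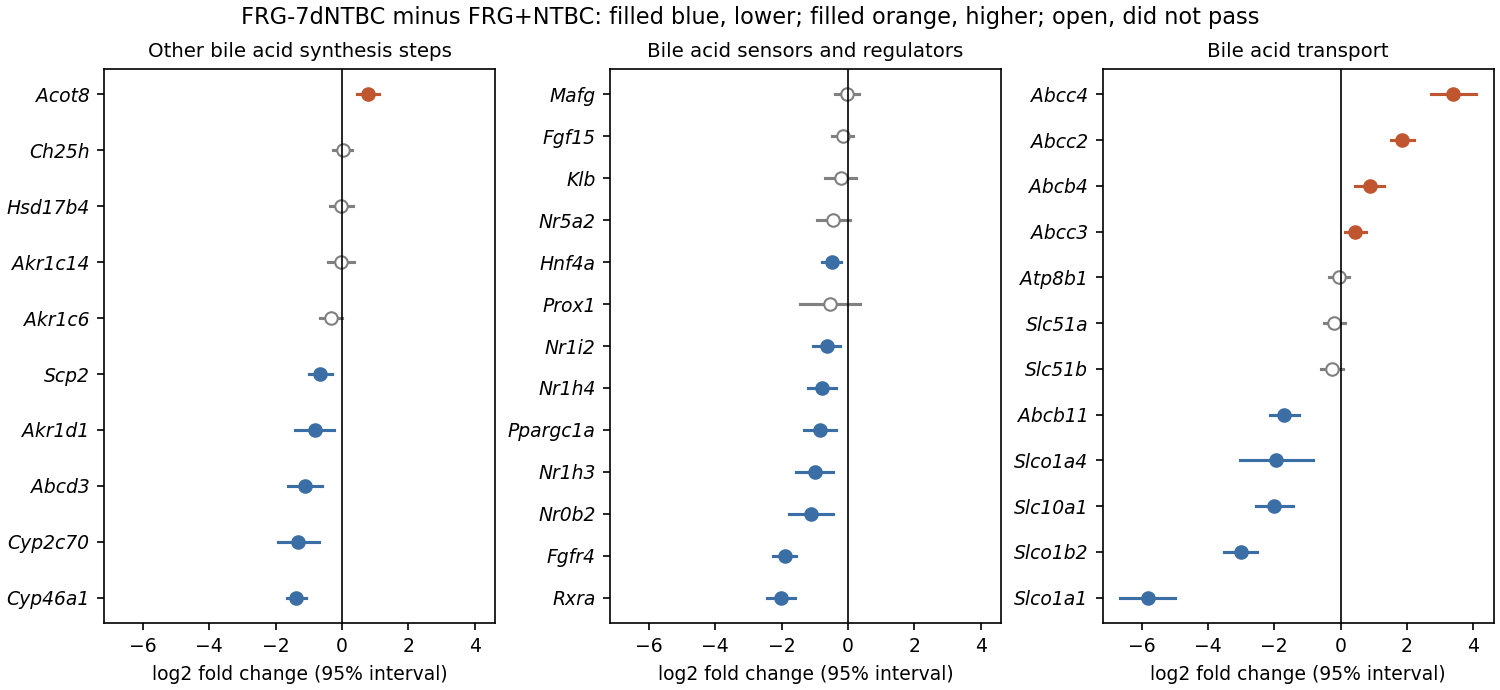
Horizontal axis, log2 ratio of the withdrawal group to the treated group (drawn as log2 fold change, with 95% intervals from limma) for the other synthesis steps, the regulators and the carriers of bile acids, 1 point per gene at its brightest probe set. Filled points passed at an adjusted p under 0.05 and open points did not: 5 of 10, 8 of 13 and 5 of 12 genes are lower, and 1, 0 and 4 are higher. Of all genes, 12.7% were lower and 17.4% higher.

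Lists of other liver genes give the setting of these values, beside 17.4% of all genes higher and 12.7% lower. Of 8 hepatocyte markers 2 fell (Tat, log2 ratio -1.92, and Cps1, -0.73) and 0 rose. Their summed intensity was 120085 to 129326 with NTBC and 110387 to 123130 without. This sum holds Alb, Ttr (means 26130 and 26025) and Apoa1 (23558 and 22247), near the top of the scale, so it may miss a change. Of 9 pericentral genes, from the zone where Cyp7a1 is mainly expressed, 4 fell and 0 rose: Slc1a2 (-2.95), Rgn (-2.34), Glul (-1.38) and Cyp2e1 (-1.17). Among those that did not pass, Cyp1a2 (0.66), Axin2 (0.54) and Lgr5 (0.10) stood above 0, and Oat (-0.50) and Tbx3 (-0.25) below. The summed intensity of the 9 genes fell from between 31236 and 32855 to between 17169 and 20514. It rests mostly on the brightest genes, such as Cyp2e1 (means 13037 and 6308) and Rgn (9590 and 2166). Without moderation 2 of the 9 genes were lower. Glul was lower at 1 of its 2 probe sets and Slc1a2 at 3 of 5. With array weights, or without FRG-7dNTBC replicate 2, 2 pericentral genes were higher. Of 6 periportal genes 3 fell (Hal, -2.71, Pck1, -2.48, and Ass1, -2.38) and 2 rose (Cdh1, 1.26, and Hsd17b13, 0.81). Pck1 was lower at 1 of its 3 probe sets and Hsd17b13 higher at 1 of 2. Ass1 has 1 probe set with a single symbol, which read 115 with NTBC and 21.2, near Rag2, without. Its fall is therefore not exact and may not stand for the gene as a whole. Of 8 male-biased liver genes 5 fell and 0 rose, namely Hsd3b5 (-7.15, a size that is not exact because it ended at 14.0, below Rag2), Elovl3 (-4.68), Nudt7 (-1.95), Cyp2u1 (-0.85) and Cyp2d9 (-0.76), while of 7 female-biased genes Cyp2b9 rose by 2.82 and Acot3 fell by 1.47, and without FRG-7dNTBC replicate 3 2 female-biased genes were higher. Acot3 lost its call with any one of FRG+NTBC replicates 1 and 3 and FRG-7dNTBC replicate 1 left out. Cyp2u1 was lower at 1 of its 2 probe sets. Of 12 peroxisome biogenesis genes 3 rose (among them Pex13, 1.17, and Pex3, 1.15) and 2 fell (Pex26, -1.73, and Pex6, -1.41). Without moderation 1 was higher. The probe sets of Pex6 disagreed, with 3 of 5 lower and 1 higher, and Pex13 was higher at 1 of 2.

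Among markers of other cells the ones that passed in the fit without alternatives had risen, beside 17.4% of all genes that were higher. Their part in the values of the enzymes was not tested. Of 8 macrophage markers 4 rose (Cd68, Cd5l, Vsig4 and Marco, by 2.23, 1.84, 1.58 and 1.09) and 0 fell, with a summed intensity of 1803 to 2801 with NTBC and 2261 to 5825 without, though Adgre1 stood at -0.08. The macrophage count was 2 when FRG+NTBC replicate 1 or 2 or FRG-7dNTBC replicate 1 was left out. Without moderation it was 1, with 1 endothelial and 0 stellate cell markers higher. Of 7 endothelial markers 2 rose (Lyve1 and Clec4g), from sums of 1129 to 1680.4 to sums of 1796 to 2211, with Pecam1 at 0.48 (not passed) and Vwf below Rag2. Only 1 of them passed when FRG+NTBC replicate 2 or FRG-7dNTBC replicate 1 was left out. Of 8 stellate cell markers Lrat rose, with sums of 2852 to 4446 and 2988 to 6525. Des stood at -0.37 with separate groups and did not pass (adjusted p = 0.0577 from limma). After 75th percentile scaling, after quantile normalization or with array weights, 1 stellate marker was lower. With array weights 2 stellate markers were higher. Without FRG-7dNTBC replicate 2 there were 3 higher stellate markers, and 0 without FRG+NTBC replicate 3. At its brightest probe set, none of 6 cholangiocyte markers passed (sums of 266 to 269 and 236 to 429, Krt19 at -0.27 and Cftr below Rag2), but 2 were higher without FRG-7dNTBC replicate 2. With array weights or the replicate block 1 was higher, and with 75th percentile scaling 1 was lower. The probe sets of Epcam disagreed: the brighter one stood at -0.26 (not passed) and the other rose from 16.6 to 24.6, around the level of Rag2 (log2 ratio 0.56, adjusted p = 0.0265 from limma). Of 5 neutrophil and 6 lymphocyte markers, limma called 0 (sums of 134 to 198 and 136 to 229.6 for neutrophils, with S100a8 at 0.69 and Mpo below Rag2, and of 248 to 275 and 239 to 254 for lymphocytes, with Cd3e at -0.16 and Cd3g and Ncr1 below Rag2). With array weights 1 neutrophil marker was higher, and with the replicate block 1 was higher and 1 lower. Marco, Clec4g and Lrat were each higher at 1 of their 2 probe sets.

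Genes with the pattern most like Cyp7a1 were found by the distance between log2 values, each taken relative to its FRG+NTBC mean, over the 6 mice. The nearest was Lin7a (distance 0.40 on the log2 scale), followed by Serpina4-ps1 (0.55), Dbp (0.79), Cmah (0.79) and B3galt1 (0.91). Dbp, a transcription factor of the circadian output, fell by 4.15 on the log2 scale. Cyp7a1 has a daily rhythm in mouse liver. The hour of collection is not given in the sources used here, and its part in the result was not tested. The genes nearest to Cyp39a1 were Gtpbp2 (0.27), Rad21 (0.27), Cadm1 (0.28), Xiap (0.32) and Map2k3 (0.36), each read at 1 of its probe sets. B3galt1 ended at 8.36, and Gtpbp2 and Xiap started at 20.1 and 17.4, all at or below Rag2, so their distances are not exact.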

How the data were processed

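Liver RNA of 3 FRG+NTBC and 3 FRG-7dNTBC mice was measured on Affymetrix Mouse Genome arrays, 1 per mouse. The deposited intensity values come from the authors, who ran Robust Multiarray Analysis, a method that corrects background, makes the distributions of the arrays equal by quantiles and sums probes by median polish. The deposited arrays were not exactly equal, with median intensities of 35.3 to 36.5 in FRG+NTBC and 33.1 to 34.3 in FRG-7dNTBC mice. Transcriptome Analysis Console is the program listed in the submitters' processing notes. All 270222 deposited values lie on steps of 0.01 on the log2 scale, so smaller differences are lost. Their log2 was taken here. Gene names come from the annotation of the array (34945 with 1 gene symbol, 932 with several, 9160 with none of the probe sets), with symbols updated through RefSeq gene IDs, and list symbols not found there were looked up among RefSeq synonyms. Both groups entered 1 fit by limma 3.58.1 under R 4.3.3 (functions lmFit and eBayes, without covariates), with Benjamini-Hochberg adjustment over all 45037 probe sets and a threshold of 0.05. The fit was tested on simulated data. Lists describe 1 probe set per gene, with counts and medians only, and other probe sets of a gene did not always pass.

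The members and lists were chosen with earlier results of these data known. Named genes are the members and, in each other list, its first gene and up to 4 that passed with the largest change. A few further genes of the bile acid lists (Scp2, Hsd17b4, Nr5a2, Klb, Abcb11, Abcc2, Abcb4 and Abcc3) were picked once their values were known. For the same reason all pericentral genes and the stellate cell marker Des are named. The 5 genes nearest to Cyp7a1 and to Cyp39a1 are named as well. The number of arrays limits the precision. Alternatives were 2 scalings, a filter on dim probe sets (below the median), a robust trend in the moderation or none, weights per array, use of only those probe sets not marked as matching several transcripts, a block for the replicate number, each mouse left out in turn and gene means. Protein sequences were not used here.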

Additional observations from a re-analysis of the deposited data

How the results depend on the processing

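Of 213 refits of single member probe sets, 178 kept their direction and side of the threshold, 12 lost the call, 19 gained one and 4 turned in sign. All 4 concern the Cyp7b1 probe set below the level of Rag2, at 0.028 after quantile normalization and 0.10 with array weights, and between -0.20 and 0.073 with each mouse left out in turn (above 0 for FRG+NTBC replicate 3 and FRG-7dNTBC replicate 2). The count of lower member probe sets, 7, was 3 without moderation and 4 without probe sets that may match several transcripts (10 of 15 left), and that of lower genes, 5, was 2 and 3. Over all probe sets the count of lower ones, 6262, was 3336 and 5120 in these settings. The count of higher member probe sets and genes, 1 each, was 0 without moderation and 2 with array weights. Over all probe sets the count of higher ones, 6284, was 3141 and 7771. With each mouse left out in turn, 5 to 9 member probe sets and 3 to 7 member genes were lower, and 0 to 2 higher. Over all probe sets 3864 to 6400 were then lower and 4390 to 6815 higher. Scaling to one 75th percentile gave 10 lower member probe sets and 7 lower genes, quantile normalization 9 and 7. Over all probe sets these scalings gave 9669 and 6210 lower ones. With gene means, the route differences were -0.35 for Cyp8b1 minus Cyp7b1, -2.66 for Cyp7a1 minus Cyp27a1, 2.30 for Cyp39a1 minus Cyp7b1 and -2.29 for Cyp7a1 minus Cyp8b1. Every probe set of a gene enters the mean, also those of Cyp7b1 and Cyp27a1 below the level of Rag2 and the dim second one of Cyp7a1. Without single mice they ranged from -2.95 to -2.47 (Cyp7a1 minus Cyp7b1), 0.038 to 0.80 (Cyp8b1 minus Cyp7b1), -3.44 to -2.98 (Cyp7a1 minus Cyp27a1), 2.73 to 3.42 (Cyp39a1 minus Cyp7b1) and -3.39 to -2.95 (Cyp7a1 minus Cyp8b1). Among named genes of other lists, Alb turned to -0.047 after scaling and Adgre1 to 0.08 and 0.24 with FRG+NTBC replicate 3 and FRG-7dNTBC replicate 2 left out, none passing. In other cases the cause was not tested.

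Equal replicate numbers do not mark a shared litter or day in the labels, and deviations of same-numbered mice from their group means correlated at 0.11, 0.03 and -0.16. With the replicate number as a block, 8 member probe sets and 6 genes were lower and 1 was higher, the call gained being that of Cyp27a1, and the exact permutation test of the routes then cannot go below p = 0.25.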
